A study of Mus musculus with 9 samples.

Results

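The genes described here are 10 transcription factors that direct the formation and upkeep of rod and cone photoreceptors: Nrl, Nr2e3, Mef2d, Crx, Otx2, Neurod1, Prdm1, Rorb, Thrb and Rxrg. They were taken by symbol from a table of 22337 genes, each symbol matched 1 row, and all 10 passed the filter on low counts in every comparison. Retinas were collected at P28 from WT mice (C57 BL/6J, not treated) and from rd10 mice that had received either normal saline (NS) or MSC-EVs, 1 µl in both eyes at P14 and again at P21, injected into the vitreous, with 3 RNA-seq libraries per group. In rd10 mice a missense mutation of Pde6b, the beta subunit of rod phosphodiesterase, is present in every cell, and the retina loses its rods and later its cones. MSC-EVs are extracellular vesicles released by mesenchymal stem cells, here from human umbilical cord. The rd10 mice given NS or MSC-EVs were littermates, whereas the WT mice came from another supplier and were not injected, so genotype, origin and injection cannot be told apart in a comparison with WT. The labels do not state how many retinas or animals entered a library, and p-values measure the spread between these libraries.

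Library totals were 24155042, 23966633 and 21719265 counts in WT, 28545647, 19491721 and 20762670 in NS-treated rd10, and 23058123, 22604510 and 62532357 in MSC-EVs-treated rd10. All 9 libraries held the rod markers that a retina should hold. Gnat1, the rod transducin alpha subunit, was at 15437 ± 785 CPM (counts scaled to a common library size) in WT, 3530.3 ± 544 CPM in NS-treated rd10 and 3549 ± 796 CPM in MSC-EVs-treated rd10 (mean ± SD, n = 3 libraries here and throughout). Pde6b, the mutated gene, was at 2487, 2413 and 2608 CPM in WT, 536, 615 and 449.9 CPM in NS-treated rd10, and 472, 594 and 715 CPM in MSC-EVs-treated rd10. The MSC-EVs group was not uniform. Its replicates 1 and 2 had 733 to 1957 counts for each of the chromosome Y genes Kdm5d, Uty, Ddx3y and Eif2s3y, while MSC-EVs replicate 3 and all 6 libraries of the other groups had 0 to 8. Replicate 3 was also the deepest library, and the sex of the mice is not in the labels. Results of the treatment comparison are therefore also given without single libraries where that changes them.

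In the developing retina Otx2, a homeodomain protein, commits cells to the photoreceptor lineage and switches on Crx, the homeodomain protein that drives most photoreceptor genes. Rorb, an orphan nuclear receptor, acts before Nrl, a basic leucine zipper protein of the Maf family, which turns a photoreceptor precursor into a rod and switches on Nr2e3, an orphan nuclear receptor that keeps cone genes silent in rods. Mef2d binds with Crx at photoreceptor genes, Neurod1 is a basic helix-loop-helix protein needed to keep photoreceptors alive, and Prdm1 holds back the bipolar cell program in photoreceptor precursors. Thrb and Rxrg are nuclear receptors of cones that set which cone opsin is made. Several of these genes are also used elsewhere: Otx2, Crx, Neurod1 and Rorb in bipolar or other inner retinal cells, Otx2 in the pigment epithelium, and Prdm1 in lymphocytes.

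The sequences before the transcription starts of Crx and Rorb are shown, because the Crx start had more copies of the homeodomain core than any other member's and Rorb was the member that passed the test between the treatments. They are the 250 bases upstream of a RefSeq start on GRCm38.p6, read 5′ to 3′ on the strand of the gene, which is the minus strand for both: Crx at chr7:15879956-15880205 and Rorb at chr19:19111197-19111446. Capitals mark any of 4 hexamers, the homeodomain core TAATCC, the Maf recognition hexamer TGCTGA, the nuclear receptor hexamer AGGTCA and the E-box CAGATG, on either strand.
Crx: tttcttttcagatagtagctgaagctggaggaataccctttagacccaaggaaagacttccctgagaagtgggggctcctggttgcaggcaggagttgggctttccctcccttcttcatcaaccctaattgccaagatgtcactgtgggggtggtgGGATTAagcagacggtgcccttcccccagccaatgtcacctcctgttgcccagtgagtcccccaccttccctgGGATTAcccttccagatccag
Rorb: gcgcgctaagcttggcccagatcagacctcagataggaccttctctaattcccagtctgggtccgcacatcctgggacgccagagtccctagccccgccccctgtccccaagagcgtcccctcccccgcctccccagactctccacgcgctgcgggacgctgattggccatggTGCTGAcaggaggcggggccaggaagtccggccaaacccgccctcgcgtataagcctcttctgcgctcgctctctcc

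The search covered windows from 250 bases before to 50 bases after each start, and the members had 16 such windows. The Crx window held 2 homeodomain cores, both written as GGATTA, the reverse complement of TAATCC. The Nrl window held 1 E-box and the first Rorb window 1 Maf hexamer, while the Nr2e3 and Prdm1 windows held none of the 4. Among all 32851 windows of this length, 7.06% held the homeodomain core, 19.5% the Maf hexamer, 16.3% the nuclear receptor hexamer and 17.2% the E-box. A match describes these letters only and is not evidence of binding. On GRCm38 (GENCODE M21), Nrl lies at chr14:55518978-55524981, Crx at chr7:15865947-15879968, Nr2e3 at chr9:59942771-59960659 and Rorb at chr19:18930605-19111196. The exons of these 4 genes overlapped no other gene, apart from 1.81% of the exonic bases of Nr2e3. By contrast, 13.0% of the exonic bases of Neurod1 (with Cerkl on the same strand and Gm26755 on the other), 8.87% of Mef2d (1700113A16Rik on the other strand) and 3.98% of Otx2 (Otx2os1 and Gm49154) were shared, and reads there could have been counted for either gene.

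Levels were compared between genes on the FPKM scale, which corrects for transcript length. In WT retina Nrl was the most abundant member at 999 ± 13.6 FPKM, followed by Crx at 525 ± 14.2, Nr2e3 at 202 ± 5.23 and Neurod1 at 171 ± 6.98 FPKM. Mef2d (134 ± 2.89 FPKM) and Otx2 (125 ± 2.32 FPKM) came next, and their libraries did not overlap, with Otx2 reaching 128 FPKM and Mef2d starting at 131. Rorb was at 45.4 ± 2.89, Thrb at 17.3 ± 0.0929, Prdm1 at 5.41 ± 0.11 and Rxrg at 4.4 ± 0.54 FPKM. The rod factor and the shared homeodomain factor thus led, and the cone receptor Rxrg and the developmental repressor Prdm1 stood at the bottom.

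The order was compressed in rd10. In NS-treated retinas Nrl (196 to 274 FPKM) and Crx (234 to 297 FPKM) overlapped, so neither could be placed above the other. Nr2e3, Neurod1, Mef2d and Otx2 formed a group of similar levels, at means of 118 ± 12.2, 129.8 ± 5.87, 117 ± 6.35 and 120.3 ± 6.61 FPKM, in which only Neurod1 and Mef2d did not overlap. In the MSC-EVs group Nrl (231 ± 47.3 FPKM) and Crx (228 ± 26.6 FPKM) again overlapped. Nr2e3, at 91.8 ± 15.9 FPKM, had its libraries between 79.5 and 109.7 FPKM, all below those of Neurod1 (139 to 163) and Mef2d (139 to 157). Rxrg, which was below Prdm1 in every WT library, was above it in every rd10 library, at 5.78 ± 0.641 against 2.22 ± 0.56 FPKM with NS.

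**Figure D1:**
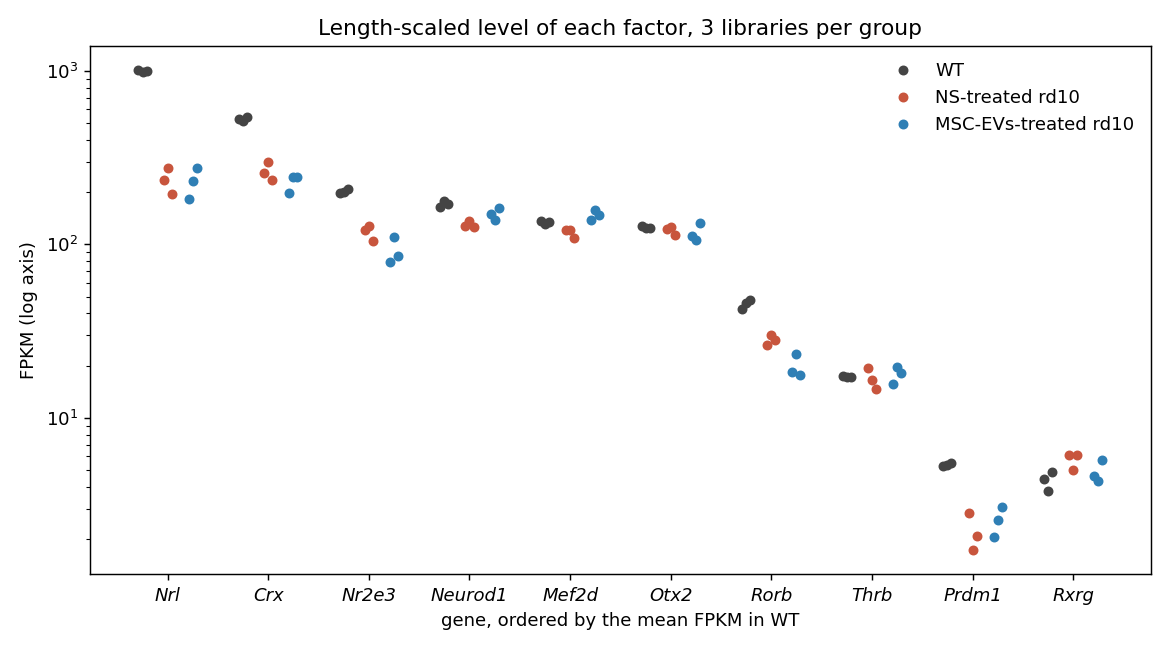
FPKM of each factor on a log axis, with genes ordered by the WT mean and 1 point per library, 3 libraries per group. The WT libraries of Nrl sit near 999 FPKM, clearly above Crx, while in both rd10 groups the Nrl and Crx points overlap.

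Changes were measured on the counts with edgeR, scaled between libraries by TMM, and a gene was called changed at a Benjamini-Hochberg adjusted p under 0.05 over all genes tested. The term differentially expressed is kept for changed genes whose log2 fold change was 1 or more in size. CPM values are on the same TMM scale.

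The first comparison asks what the rd10 retina has lost at P28. Of the 10 factors, 8 were lower in NS-treated rd10 than in WT, none was higher, and the other 2 were the cone receptors Thrb and Rxrg. Across all 14644 genes tested, 30.1% were lower and 31.2% higher, so a difference from WT was common in this retina. Differential expression was reached by Nrl, Prdm1 and Crx, against 3.56% of all genes with a lower level by that rule. The NS and WT libraries of all 8 lower factors did not overlap, which was also true of 66.9% of all genes. The median log2 fold change was -0.67 over the 10 factors and 0.005 over all genes. In bulk retina, fewer cells of a type and less RNA per cell cannot be told apart. Nor can the cells that the RNA of a gene came from be told, and this holds also for Thrb, Rxrg and Mef2d.

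Of the rod factors Nrl and Nr2e3, Nrl was at 1850.2, 1783 and 1869 CPM in WT and at 374, 440.0 and 317 CPM in NS-treated rd10. Every NS library was below every WT library, and the level fell 4.87-fold, or -2.28 ± 0.11 on the log2 scale (SE, edgeR adjusted p = 4.33e-08). Nr2e3 went from 436, 440.2 and 460.4 CPM to 237, 249 and 202 CPM. Its groups were also separate, but the change of -0.96 ± 0.07 (edgeR adjusted p = 5.49e-07) was well under that of Nrl, its activator in rods. Mef2d, which binds with Crx, had 597, 584 and 612 CPM in WT and 481, 511 and 458 CPM with NS. Its fall was milder than those of Nrl and Nr2e3, -0.31 ± 0.06 on the log2 scale (edgeR adjusted p = 0.000678), again without overlap.

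Among the factors shared by rods and cones, Crx was at 1645, 1588 and 1698 CPM in WT and at 722, 812 and 643 CPM in NS-treated rd10. The level fell 2.26-fold, with no overlap (log2 fold change -1.18 ± 0.08, edgeR adjusted p = 1.79e-07). Otx2, which lies upstream of Crx, had 225, 222 and 229 CPM in WT and 185, 196 and 183 CPM with NS. Its change was small, -0.26 ± 0.05 (edgeR adjusted p = 0.000959), and depended on the scale. On log2(FPKM + 1), tested with limma, it was -0.06 (adjusted p = 0.364), where the median of all genes was 0.14 and Otx2 lay 0.2 below that median.

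Neurod1 was at 486, 522 and 505 CPM in WT and at 334, 355 and 326 CPM with NS, a separate and lower set of values (log2 fold change -0.58 ± 0.06, edgeR adjusted p = 3.81e-06). Rorb had 363, 408 and 431 CPM in WT and 221, 247 and 237 CPM with NS. Its level fell by 0.77 ± 0.07 on the log2 scale (edgeR adjusted p = 1.49e-06). Prdm1, the least abundant factor of this class, was at 29.0, 29.8 and 31.2 CPM in WT and at 13.9, 8.61 and 10.1 CPM with NS. It showed the second-steepest fall of the 10, 2.72-fold (log2 fold change -1.45 ± 0.15, edgeR adjusted p = 1.33e-05), and its NS libraries spread more widely than its WT libraries.

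The cone receptors did not pass the test. Thrb was at 92.1, 89.6 and 91.6 CPM in WT and at 95.5, 83.8 and 76.3 CPM with NS. The NS libraries lay on both sides of the WT values, and the log2 fold change was -0.09 with a 95% interval from -0.26 to 0.07 (edgeR adjusted p = 0.31). Without NS replicate 1, its highest library, the value was -0.19 and passed the test (edgeR adjusted p = 0.0183), whereas without NS replicate 3, its lowest, the value was -0.02 (edgeR adjusted p = 0.846). Rxrg, at 8.98, 7.38 and 9.52 CPM in WT and 11.2, 8.71 and 10.3 CPM with NS, also overlapped. Its log2 fold change of 0.23 had an interval from -0.07 to 0.53 (edgeR adjusted p = 0.162), and it was 0.13 without WT replicate 2 and 0.14 without NS replicate 1. On log2(FPKM + 1) limma gave 0.33 and an adjusted p of 0.0199, a value 0.19 above the median of all genes. Rxrg rested on 165 to 645 counts per library, the lowest of the members beside Prdm1.

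**Figure D2:**
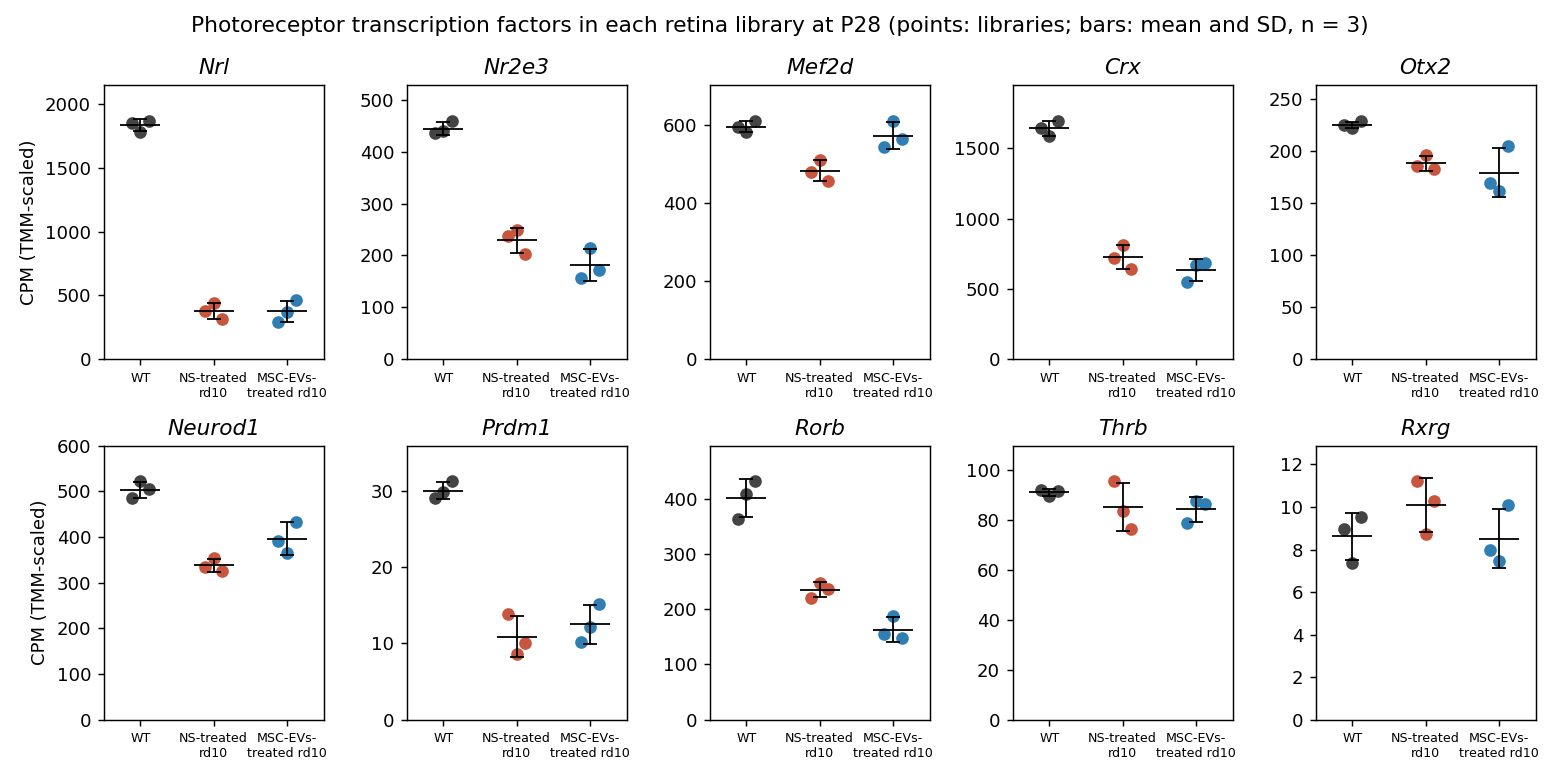
TMM-scaled CPM of the 10 factors in each library, with 1 panel per gene, axes from 0, points for libraries and bars for the mean and SD of 3. Nrl, Crx and Prdm1 drop furthest from WT to NS-treated rd10, Thrb and Rxrg overlap between WT and NS, and the Rorb libraries step down from WT (363 to 431) to NS (221 to 247) and to MSC-EVs (147 to 188).

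The second comparison asks whether the factors differed between MSC-EVs-treated and NS-treated rd10. The factor that passed the test was Rorb, which was lower with MSC-EVs, and none was higher or differentially expressed. Of the 14765 genes tested, 0.251% were lower, 0.914% higher and 0.061% differentially expressed in either direction. The libraries of 3 factors did not overlap between the treatments, Rorb lower and Neurod1 and Mef2d higher, beside 26.2% of all genes. The median log2 fold change was -0.04 over the factors and -0.002 over all genes. This comparison shares its NS libraries with the first, so a high or low NS library enters both.

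Rorb stood at 155, 188 and 147 CPM in the MSC-EVs libraries, beside 221, 247 and 237 CPM in the NS libraries. Each MSC-EVs library was below each NS library, a 1.44-fold lower level (log2 fold change -0.52, 95% interval -0.74 to -0.31, edgeR adjusted p = 0.0424). The direction was therefore away from the WT level of 401 ± 34.3 CPM. The call was a narrow one. Without any single NS library, without MSC-EVs replicate 1 or without MSC-EVs replicate 3 the log2 fold change stayed between -0.45 and -0.57, but the edgeR adjusted p was 0.0569, 0.145, 0.2, 0.212 and 0.0635. Without MSC-EVs replicate 2 it was -0.64 with an adjusted p of 0.00355. Leaving out MSC-EVs replicate 3 brought the group to the 2 libraries with chromosome Y counts and gave -0.45 (edgeR adjusted p = 0.0635).

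The rod factors showed no gain that passed the test. Nrl was at 294, 367 and 459 CPM with MSC-EVs, which enclosed the NS values, and its log2 fold change of -0.01 had an interval from -0.47 to 0.46 (edgeR adjusted p = 0.989). That interval still allows changes of about the size seen for Rorb. Nr2e3 was at 156, 215 and 172 CPM, lower on average than with NS but overlapping it. Its log2 fold change was -0.34 with an interval from -0.64 to -0.04 and an edgeR adjusted p of 0.203, and without MSC-EVs replicate 2, its highest library, it was -0.48 with an adjusted p of 0.0259.

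Mef2d and Neurod1 were at the upper side of the NS values. Mef2d had 544, 611 and 565 CPM with MSC-EVs, all above the NS libraries, and a log2 fold change of 0.25 (interval 0.09 to 0.41, edgeR adjusted p = 0.0981). It passed with DESeq2 (0.25, adjusted p = 0.028), with all 9 libraries in one edgeR fit (0.24, adjusted p = 0.036) and with limma on log2(FPKM + 1) (0.34, adjusted p = 0.0431). It did not pass in edgeR with upper-quartile factors (adjusted p = 0.133) or a replicate block (adjusted p = 0.0652), or in limma without a filter (adjusted p = 0.0943). Nor did it pass with any single library left out (edgeR adjusted p = 0.134 to 0.328). Neurod1, at 391, 365 and 434 CPM, was also above every NS library, by 0.23 on the log2 scale (interval 0.06 to 0.4, edgeR adjusted p = 0.137). These intervals are not adjusted for the number of genes.

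For the remaining 5 factors the MSC-EVs and NS libraries overlapped. Crx was at 546, 672 and 685 CPM and its log2 fold change was -0.19 (interval -0.44 to 0.06, edgeR adjusted p = 0.373), a value of -0.09 with MSC-EVs replicate 1 left out and of -0.1 with NS replicate 2 left out. Otx2 was at 169, 161 and 205 CPM and Prdm1 at 10.2, 12.2 and 15.2 CPM, with log2 fold changes of -0.07 (interval -0.27 to 0.14) and 0.21 (interval -0.26 to 0.67). With single libraries left out, the Prdm1 value ranged from 0.04 (without MSC-EVs replicate 3) to 0.43 (without NS replicate 1) and was 0.07 without NS replicate 2. In both genes MSC-EVs replicate 3 was the highest of its group. Thrb was at 78.7, 87.7 and 86.4 CPM and Rxrg at 7.97, 7.46 and 10.1 CPM, with log2 fold changes of -0.01 (interval -0.21 to 0.19) and -0.23 (interval -0.59 to 0.12). With single libraries left out the Rxrg value ranged from -0.39 (without MSC-EVs replicate 3) to -0.15 (without MSC-EVs replicate 2 or NS replicate 1). In simulated data of this design, 40.4% of genes changed by 0.5 and 88.9% of those changed by 1.5 on the log2 scale were recovered, so differences of the size of most of these estimates would often be missed.

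**Figure D3:**
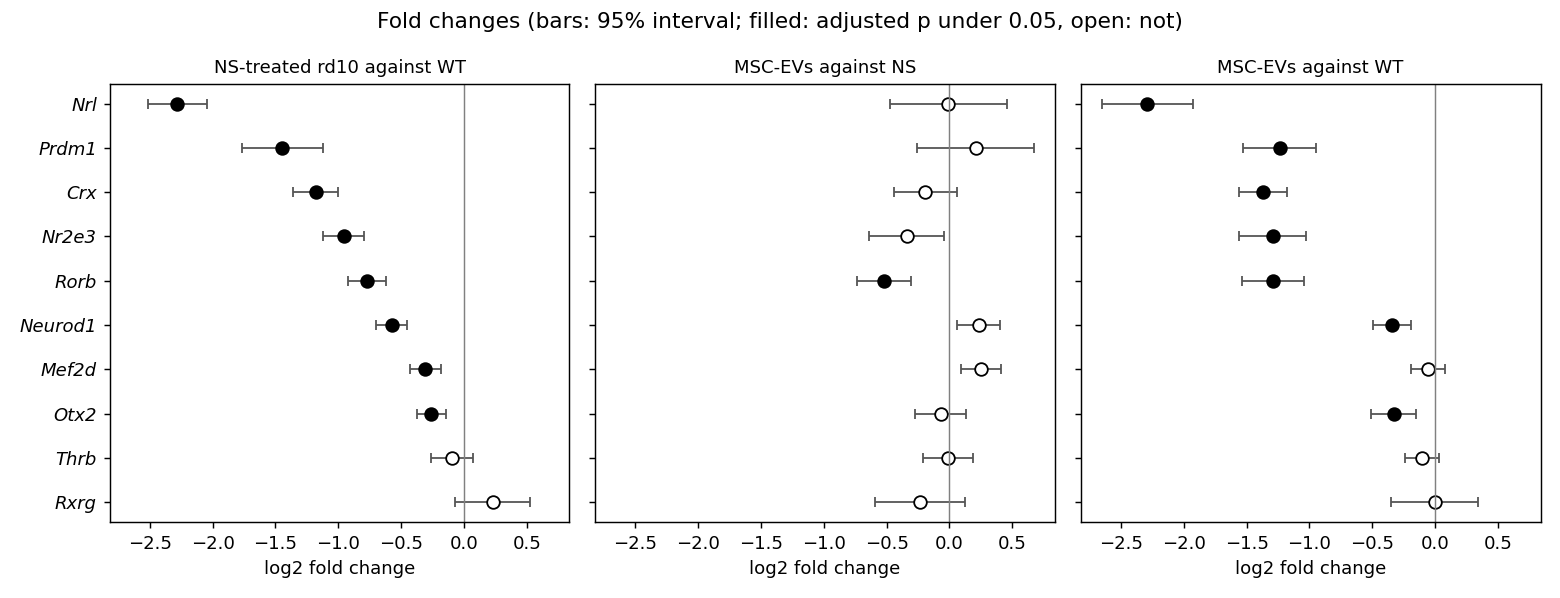
Log2 fold changes of the 10 factors in the 3 comparisons, with bars for the 95% interval and filled points at an edgeR adjusted p under 0.05. Filled points run from -2.28 (Nrl) to -0.26 (Otx2) for NS against WT, and Rorb at -0.52 is the filled point for MSC-EVs against NS.

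Set against WT, MSC-EVs-treated retinas had 7 of the 10 factors lower and none higher, beside 27.2% and 28.3% of the 14623 genes tested. Nrl, Crx, Nr2e3, Rorb and Prdm1 were differentially expressed, beside 3.2% of all genes with a lower level by that rule. The log2 fold changes were -2.29 ± 0.15 for Nrl (edgeR adjusted p = 3.49e-05), -1.37 ± 0.08 for Crx (1.93e-06), -1.29 ± 0.11 for Nr2e3 (5.88e-05), -1.29 ± 0.11 for Rorb (3.49e-05) and -1.24 ± 0.13 for Prdm1 (4.69e-05). Neurod1 (-0.34 ± 0.07, edgeR adjusted p = 0.00174) and Otx2 (-0.33 ± 0.08, edgeR adjusted p = 0.00692) were lower by less. On log2(FPKM + 1) Otx2 was at -0.11 and did not pass (limma adjusted p = 0.239), the median of all genes being at 0.12. Thrb, Rxrg and Mef2d did not pass in edgeR. Mef2d was at -0.05 (interval -0.19 to 0.08, edgeR adjusted p = 0.469). This value was -0.11 without MSC-EVs replicate 2 and -0.01 without MSC-EVs replicate 1. On log2(FPKM + 1), however, limma placed Mef2d at 0.14 (adjusted p = 0.0483), which was 0.02 above the median of all genes. The libraries of 8 factors did not overlap, the 7 lower ones and Thrb, beside 65.1% of all genes, and the median log2 fold change was -0.79 over the factors and -0.004 over all genes.

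The factors were next set against the rods' own effector genes within each library, as a factor's log2 FPKM minus the mean log2 FPKM of Gnat1, Pde6b and Sag, the rod arrestin. Such a ratio does not depend on library depth, and sets the loss of a factor beside that of the rod machinery. With 3 libraries against 3, the exact two-sided permutation test cannot give a p below 0.1. Nrl was the factor with a lower ratio in rd10: -1.2, -1.19 and -1.3 in WT and -1.69, -1.61 and -1.69 with NS, a difference of -0.43 (exact permutation p = 0.1). Among all 14533 genes with a ratio, 0.275% were lower without overlap. The value rests on Sag, which fell less than the other rod genes of the reference (log2 fold change -1.16 ± 0.09, against -2.13 ± 0.11 for Gnat1 and -2.23 ± 0.1 for Pde6b). Against Sag alone the Nrl difference was -1.12 and against Gnat1 alone -0.14, each without overlap, and against Pde6b alone -0.04 with overlap. Against Gnat1 and Pde6b together it was -0.09, also without overlap, so Nrl fell slightly further than their mean.

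For most other factors the ratio was higher in rd10, as it was without overlap for 97.8% of all genes, so the direction says little about the factors and only the sizes are compared. The ratio of Crx was -2.16 ± 0.03 in WT and -1.49 ± 0.05 with NS, that of Nr2e3 -3.54 ± 0.05 and -2.65 ± 0.05, and that of Rorb -5.69 ± 0.09 and -4.71 ± 0.19. The differences were 0.67, 0.89 and 0.98, and they were larger still for Neurod1 (1.27), Mef2d (1.47) and Otx2 (1.61), without overlap in any of the 6 (exact permutation p = 0.1 each). For Prdm1 the difference was 0.36 and the groups overlapped (exact permutation p = 0.4), as NS replicate 2 was at -8.92, below the WT values of -8.8 to -8.71, and the other NS libraries were above them. Against Gnat1 and Pde6b without Sag the Prdm1 difference was 0.7 and the groups did not overlap. These differences ranked the 8 factors from Nrl at the bottom to Neurod1, Mef2d and Otx2 at the top. Against Sag alone all values were lower, with Nrl at -1.12, and those of Crx (-0.02) and Prdm1 (-0.33) overlapped with WT.

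Between the rd10 groups, 4 ratios were lower in each MSC-EVs library than in each NS library. They were those of Nrl (-0.07), Crx (-0.25), Nr2e3 (-0.4) and Rorb (-0.56), each with an exact permutation p of 0.1, beside 3.78% of all 14739 genes with a ratio, and the other 4 overlapped. Against Gnat1 and Pde6b without Sag these 4 were also lower without overlap (-0.09, -0.26, -0.42 and -0.57). Against Gnat1 alone Nrl (-0.01) and Crx (-0.19) overlapped, as did Nrl against Sag alone (-0.04), while Nr2e3 and Rorb were lower without overlap against each of the 3 genes. Mef2d was higher without overlap against Sag alone (0.33), and overlapped against Gnat1 or Pde6b alone. MSC-EVs replicate 3 was the lowest for Crx (-1.89), Nr2e3 (-3.38) and Rorb (-5.67). The rod genes themselves did not pass the test between the treatments. For the cone receptors the reference was the mean log2 FPKM of Arr3, Gnat2, Pde6c and Opn1sw. The Thrb ratio was -2.46 ± 0.1 in WT, -2.4 ± 0.24 with NS and -1.96 ± 0.21 with MSC-EVs, and every MSC-EVs library was above every NS library (difference 0.44, exact permutation p = 0.1), as for 45.9% of all genes set against these 4. Thrb itself was at 16.8 FPKM with NS and 17.8 FPKM with MSC-EVs, while among the reference genes Arr3 was at 54.5 and 31.8 FPKM, Gnat2 at 94.8 and 75.5, Pde6c at 56.2 and 48.0, and Opn1sw at 215 and 206 FPKM, none of which passed the test. That of Rxrg was -4.44 ± 0.14, -3.93 ± 0.05 and -3.84 ± 0.1, and here NS was above WT without overlap (0.51, exact permutation p = 0.1), as for 49.6% of all genes, so neither value is particular to the receptors.

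**Figure D4:**
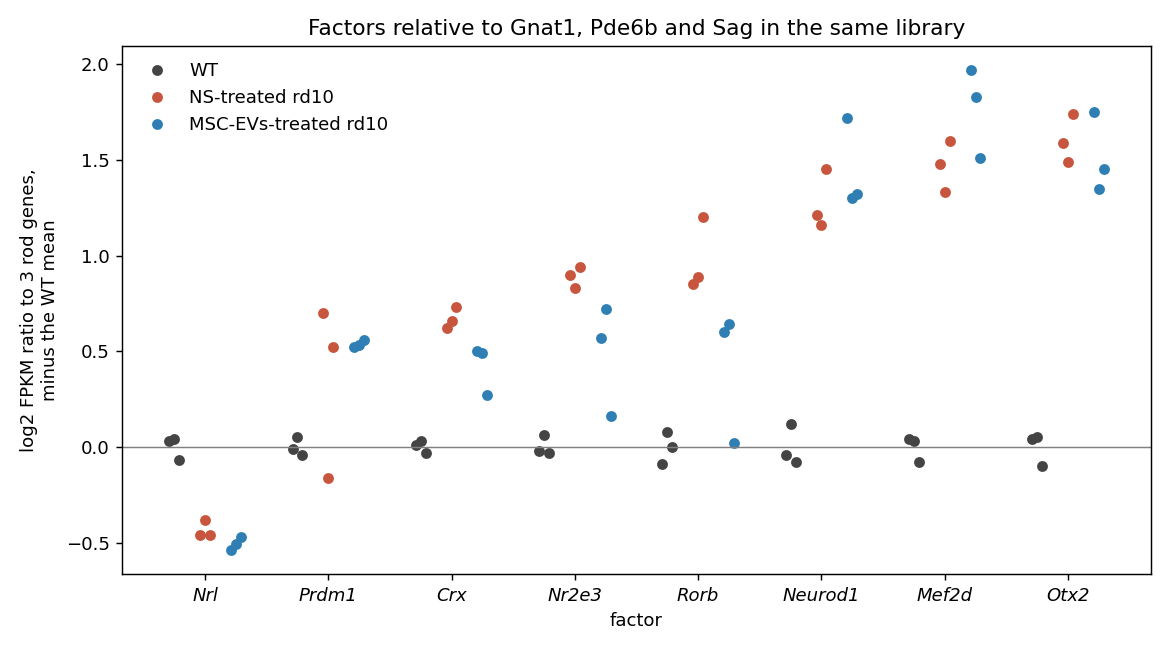
Log2 FPKM of a factor minus the mean log2 FPKM of Gnat1, Pde6b and Sag in the same library, with the WT mean set to 0, for the 8 factors other than Thrb and Rxrg, with 1 point per library and 3 libraries per group. Nrl is below 0 in all 6 rd10 libraries, and Neurod1, Mef2d and Otx2 are the highest of the 8.

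Ratios between members were chosen after their values were seen, and are given as a description with no test. The log2 FPKM ratio of Nrl to Crx was 0.93 ± 0.03 in WT, -0.17 ± 0.08 with NS and 0.0 ± 0.16 with MSC-EVs. That of Nr2e3 to Nrl, the repressor against its activator, was -2.31 ± 0.05, -0.99 ± 0.1 and -1.32 ± 0.32. Crx against Otx2 went from 2.07 ± 0.05 to 1.12 ± 0.1 and 0.96 ± 0.2. Both rd10 groups lay apart from WT in these 3 ratios. Rorb against Crx was -3.54 ± 0.09, -3.22 ± 0.14 and -3.53 ± 0.22, so that WT and MSC-EVs libraries overlapped while NS libraries were above both.

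The genes whose profile over the 9 libraries was nearest to a member, by root-mean-square distance of centred log2 CPM among 14442 genes, were then listed. For Nrl they included Gnat1 (0.087) and Pde6b (0.098). For Crx they were Vopp1, Impdh1, which makes guanine nucleotides in photoreceptors, and Ccdc126 (0.078 to 0.084). Nr2e3 was nearest to Slc16a6, a monocarboxylate transporter family member, at 0.038, then to Ebpl and Crxos. Rorb had no neighbour as close: Crxos, which lies beside Crx, Abhd14a and Slc16a6 were at 0.133 to 0.139. The genes near Prdm1 included Fabp12 (0.124) and Tube1 (0.126).

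The other factors had these neighbours. The genes near Neurod1 included Mybbp1a (0.047) and Khsrp (0.049). Mef2d was nearest to Dmxl2, E130308A19Rik and Smad2 (0.036 to 0.04), and Otx2 to Zfyve19, Mrpl24 and Cfdp1 (0.038 to 0.044). Thrb was nearest to Psma4, Rasgef1a and Fam32a (0.055 to 0.063) and Rxrg to Slc6a9, Ccdc28a and Nr4a2 (0.093 to 0.104). These distances are a description over 9 libraries of 3 groups.

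The mean transcript length that the authors' counts and FPKM imply differed between libraries for some members, a check added after the values were seen. For Rorb it was 7937, 8285 and 8255 bases in WT, 8709, 8646 and 8852 bases with NS and 8809, 8376 and 8535 bases with MSC-EVs. All rd10 libraries were above all WT libraries. For Thrb it was 4854 to 4885 bases in WT, 5141 to 5488 with NS and 4657 to 5197 with MSC-EVs. For Mef2d it was 4042 to 4196 bases in WT, 4142 to 4458 with NS and 3939 to 4056 with MSC-EVs, so that every MSC-EVs library was below every NS library. The FPKM values of these genes, and the limma values made from them, therefore differ from the counts also by length. For Nr2e3 and Neurod1 it was constant, at 2037 and 2729 bases. Which transcripts were counted is not given in the sources used here.

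Genes that work with the factors were described from lists. Rod effector genes moved in 1 direction: 25 of 25 were lower in NS-treated rd10 and 24 were differentially expressed, with a median log2 fold change of -1.82. Among all genes 30.1% were lower, and 3.56% were lower and differentially expressed. Nxnl1, which encodes the rod-derived cone viability factor, fell by 2.57 ± 0.08 and Guca1b, an activator of guanylate cyclase, by 2.55 ± 0.15 on the log2 scale. None of the 25 passed between the treatments. Of 14 cone effector genes, 5 were lower and 4 higher than in WT, shares near those of all genes, with a median of 0.04. Kcnv2, a potassium channel subunit also found in rods, fell by 2.04 ± 0.1, Gnb5, the most abundant of the list, fell by 0.77 ± 0.06, and Gnb3, also a bipolar cell gene, rose by 0.9 ± 0.11. Of the cone reference genes of the ratios, Opn1sw (-0.58 ± 0.06) and Gnat2 (-0.37 ± 0.06) were lower with NS and Pde6c (0.4 ± 0.06) was higher. Arr3 (-0.58 ± 0.27) did not pass. Against WT, the MSC-EVs group had 25 of 25 rod genes lower, and of 14 cone genes 8 lower and 2 higher, beside 27.2% lower and 28.3% higher among all genes.

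Of 20 other regulators of photoreceptor genes tested, 10 were lower and 6 higher in NS-treated rd10, beside 30.1% and 31.2% of all genes, with a median of -0.25. Mef2c, a relative of Mef2d, fell by 2.2 ± 0.11 (135 ± 7.12 CPM in WT and 29.5 ± 5.33 CPM with NS), Esrrb, an orphan receptor that supports rod energy genes, by 2.18 ± 0.27 (725 ± 19.3 and 159.6 ± 52.6 CPM), and Samd11, a member of a rod repressor complex, by 1.65 ± 0.1. Tbx2, a factor of short-wavelength cones, had the largest rise (0.63 ± 0.07). None of the 20 passed between the treatments, and 8 were lower and 3 higher in MSC-EVs-treated rd10 than in WT, beside 27.2% and 28.3% of all genes.

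Relatives of the members in their gene families numbered 22, of which 7 were lower and 9 higher with NS than in WT, also not far from the shares of all genes. Maff, a small Maf protein, rose by 3.08 ± 0.27 from 1.14 ± 0.207 to 9.64 ± 3.3 CPM, and Otx1, a relative of Otx2, rose from 0.138 ± 0.075 to 0.851 ± 0.286 CPM, a WT level worth about 3 counts per library that leaves its fold uncertain. Neurod4, a bipolar cell factor with the highest mean CPM of the list (by FPKM it was Thra), rose by 0.7 ± 0.07, in the opposite direction to Neurod1. Between the treatments Prdm2, a histone methyltransferase family member, passed: it rose from 68.6 ± 7.31 CPM (NS) to 95.1 ± 3.53 CPM (MSC-EVs), beside 97.6 ± 3.58 CPM in WT (log2 fold change 0.47 ± 0.08, edgeR adjusted p = 0.038). Of the 22, 4 were lower and 5 higher with MSC-EVs than in WT, beside 27.2% and 28.3% of all genes.

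Genes that supply, sense or clear thyroid hormone and retinoic acid, the ligands of Thrb and of retinoid receptors, were described next. Of 20 tested, 10 were higher, 4 lower and 6 not called with NS against WT, beside 31.2% higher and 30.1% lower among all genes, and the median was 0.32. Crym, a thyroid hormone binding protein, rose by 2.85 ± 0.38, from 37.8 ± 2.77 to 273 ± 120.1 CPM. Aldh1a3, which makes retinoic acid, rose by 1.85 ± 0.33 and Cyp26a1, which degrades it, by 1.52 ± 0.21, both from low levels (0.511 and 2.09 CPM in WT). Ncor1, a corepressor with the highest mean CPM of the list (by FPKM it was Crym), did not pass (-0.16). Named after its values were seen, Dio2, which makes the active hormone, rose by 1.36 ± 0.09. Thrb and Rxrg themselves did not pass in this comparison. None of the 20 passed between the treatments, and 9 were higher and 3 lower with MSC-EVs than in WT, beside 28.3% and 27.2% of all genes.

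**Figure D5:**
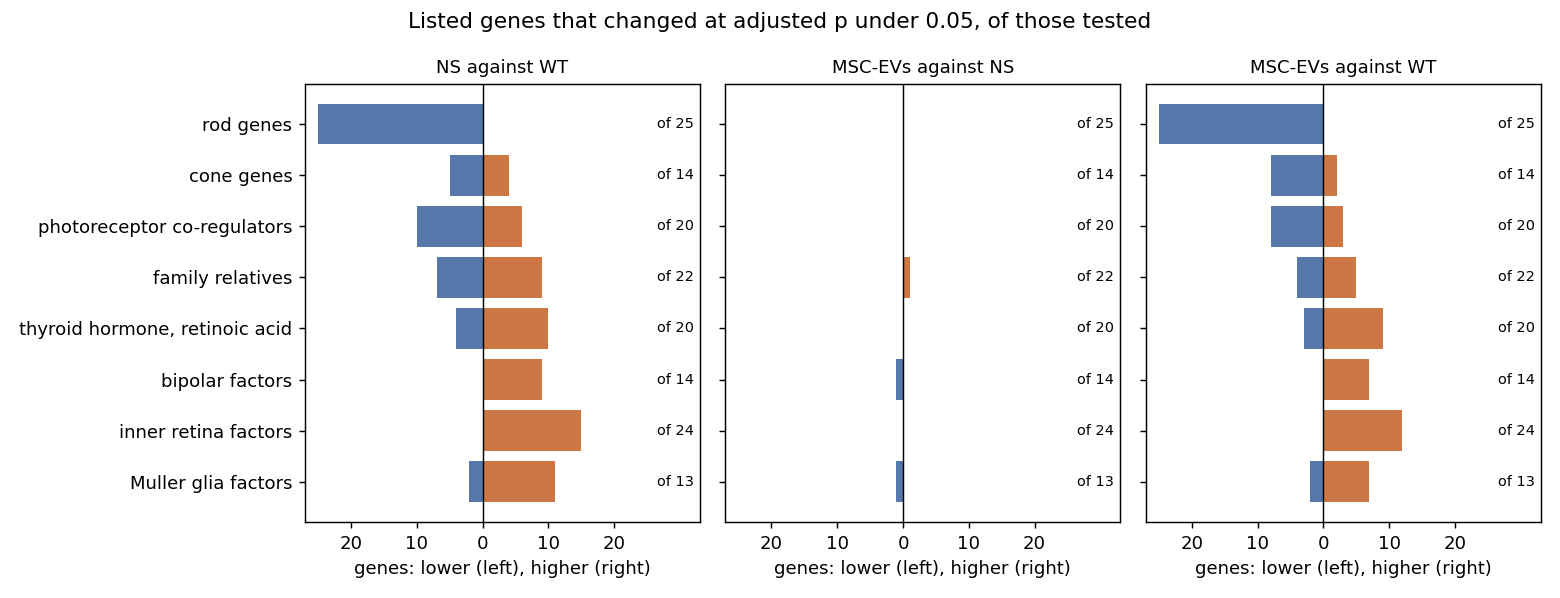
Number of genes in 8 lists that were lower (left) or higher (right) at an edgeR adjusted p under 0.05, with the number tested at the right, for the 3 comparisons. All 25 rod genes are lower in both comparisons with WT, the lists of bipolar and inner retina factors have higher genes and none lower there, and the middle panel is nearly empty.

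Transcription factors of other retinal cells were taken as 3 lists. Of 14 bipolar cell factors 9 were higher with NS than in WT, 5 did not pass and none was lower, beside 31.2% and 30.1% of all genes, led by Irx3 and Irx5 (both 0.8) and Nfia (0.74). Of 24 factors of amacrine, horizontal and ganglion cells tested, 15 were higher, 9 did not pass and none was lower, with Onecut2 at 0.77, Ebf1 at 0.69 and Pax6, the most abundant, at 0.56. In the list for Müller glia 11 of 13 were higher and 2 lower: Sox9 rose by 1.9 ± 0.09, Id3 by 1.43 ± 0.09, and Hes5, at 2.94 CPM in WT, fell by 1.74 ± 0.3, as did Rax (-0.64 ± 0.06), which is also listed with the photoreceptor regulators. CPM are shares of a library after TMM scaling, and the median log2 fold change of all genes was 0.005 with NS against WT. Any part of the lower rod genes in the higher values of other genes that remains after this scaling was not tested. Between the treatments Nfia (-0.58 ± 0.09, edgeR adjusted p = 0.0261) and Hes1 (-0.76 ± 0.11, edgeR adjusted p = 0.0252), a Notch target of Müller glia, were lower with MSC-EVs, and no factor of amacrine, horizontal and ganglion cells passed. As with Rorb, the calls of Prdm2, Nfia and Hes1 did not hold with NS replicate 3 or MSC-EVs replicate 1 left out, since edgeR then called 0 of all genes (1991 and 2052 at an unadjusted p under 0.05). Against WT, the MSC-EVs group had 7 of 14 bipolar factors, 12 of 24 inner retina factors and 7 of 13 Müller glia factors higher, and 2 Müller glia factors lower, beside 28.3% higher and 27.2% lower among all genes.

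Markers of other cells that express some of the members, or that could enter the dissected tissue, were measured beside them. Microglia markers, summed, were at 101 ± 2.53 CPM in WT, 714 ± 78.3 CPM with NS and 755 ± 195 CPM with MSC-EVs, with Ctss the highest by FPKM, and all 15 were higher in both rd10 groups than in WT. Bipolar cell markers, with Prkca the highest by CPM and Pcp2 by FPKM, summed to 2001 ± 31.7, 2234 ± 154 and 2242 ± 144 CPM. With NS, 7 of these 13 were higher and 1 lower than in WT, again beside 31.2% and 30.1%. With MSC-EVs 2 were lower than with NS, Pcp2 (-0.41) and Gng13 (-0.43), beside 0.251% of all genes. These 2 calls did not hold when NS replicate 3 or MSC-EVs replicate 1 was left out. Markers of the pigment epithelium, where Otx2 is also expressed, summed to 335, 360.2 and 370 CPM in WT. The sum was 664, 397 and 591 CPM in the NS libraries, against 520.1, 442 and 653 CPM after MSC-EVs. Trpm1, which bipolar cells also express, made up most of that sum, and no marker of the list was at 0 in all libraries. Rpe65, the defining isomerase, was at 8.39 ± 2.91, 12.3 ± 8.25 and 11.7 ± 8.71 CPM in the 3 groups and passed in no comparison. Of the 13 markers, 6 were higher with NS than in WT, beside 31.2% of all genes, and none was lower. The largest of these rises were those of Dct, Tyrp1 and Tyr (log2 fold changes 2.4, 2.11 and 1.97). Dct was at 8.05 ± 2.66 CPM in WT, 41.7 ± 24.3 CPM with NS and 20.6 ± 6.78 CPM with MSC-EVs. In the same order, Tyrp1 was at 3.63, 15.3 and 6.42 CPM and Tyr at 1.42, 5.5 and 3.29 CPM. The MSC-EVs and NS libraries overlapped for each of these genes. Between the treatments 1 of the 13 markers, Rrh, was lower (-0.46, edgeR adjusted p = 0.0497), beside 0.251% of all genes, a call lost in the same way. Of 12 pigment epithelium markers tested, 3 were higher with MSC-EVs than in WT, beside 28.3% of all genes. MSC-EVs replicate 3 was the highest of its group both in this sum and in Otx2, and NS replicate 2, the highest of its group in Otx2, was the lowest in the sum. The part of these cells in the Otx2 values was not tested.

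For Prdm1, the lymphocyte markers summed to 15.2 ± 2.34 CPM in WT, 18.5 ± 2.88 CPM with NS and 14.7 ± 4.69 CPM with MSC-EVs, with Jchain as the most abundant gene. Jchain alone was at 13.1 ± 2.5, 10.4 ± 2.57 and 5.98 ± 1.08 CPM, so the sum hides changes of the other markers. Only 3 of the 14 passed the filter in the comparisons with WT, and Cd3d, Cd3e, Ms4a1 and Nkg7 had no counts in WT. Of these 3, 2 were higher with NS than in WT, beside 31.2% of all genes, and the median log2 fold change of the 3 was 1.23. With MSC-EVs 2 were higher and 1, Jchain, was lower than in WT, beside 28.3% and 27.2% of all genes, with a median of 1.51. None of the 7 tested between the treatments passed. Endothelial and pericyte markers, led by Kdr, summed to 461 ± 12.2, 740.2 ± 29 and 737 ± 56.1 CPM, with 10 of 12 higher with NS and 8 of 12 higher with MSC-EVs than in WT, beside 31.2% and 28.3% of all genes. The part of these cells in the values of the factors was not tested.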

How the data were processed

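Retina RNA of 9 libraries was enriched with oligo(dT). The authors made 1 table of estimated counts (expected counts) and FPKM per gene from the reads, and deposited it. The submitters' processing notes name fastp, Bowtie2, HISAT2, StringTie 1.3.1 and RSEM; the genome build is not given in the sources used here. The deposited FPKM values had been scaled for transcript length and library size by the authors. Since 9.2% to 11.7% of genes per library had decimals, estimated counts were rounded. Positions came from GENCODE M21 by identifier (22283 of 22337 matched).

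Each pair of groups, 6 libraries, was fitted in R 4.3.3 by edgeR 4.0.16 (filterByExpr, TMM, robust glmQLFit, glmQLFTest), with Benjamini-Hochberg adjustment over all genes tested. TMM factors were 0.919 to 1.053. The SE of a log2 fold change was its size divided by the square root of F. Alternatives used DESeq2 1.42.0 and limma 3.58.1 (pseudocount 1 or 0.1), and ratios used scipy 1.17.1. Tests were tried on simulated data. RefSeq start windows of GRCm38.p6 were matched to all 10 members by symbol. Replicates of a group differed beyond sampling noise (chi-square per degree of freedom 4.1 to 31.31).

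The members and lists were chosen with earlier results of these data known. Genes outside the naming rule were also given, such as the reference genes of the ratios, Tbx2, Rpe65 and the lymphocyte markers without counts in WT. By that rule, named genes were the members, Pde6b, the chromosome Y genes, up to 3 genes per list with the largest called change, its most abundant gene, and the 3 genes nearest to each member. Some genes that this rule names are not reported here, and 1 of them had been a reference gene of the ratios, which therefore used Gnat1, Pde6b and Sag.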

Additional observations from a re-analysis of the deposited data

How the results depend on the processing

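The counts of members changed or differentially expressed in the comparisons with WT stayed within 1.5 times under the alternatives run, and no member was differentially expressed between the treatments under any of them. The count of members changed between the treatments was 1 and became 2 with the DESeq2 Wald test, with all 9 libraries in one fit and with limma on log2(FPKM + 1) or log2(FPKM + 0.1), and 0 with limma without a filter; with single libraries left out it ranged from 0 to 2, being 0 without NS replicate 1, 2 or 3 and without MSC-EVs replicate 1 or 3, and 2 without MSC-EVs replicate 2. Over all genes, 172 changed between the treatments, 912 with DESeq2, 1026 in the joint fit, 315 and 313 with limma, 0 with limma without a filter (3319 at an unadjusted p under 0.05), and with single libraries left out 0 (without NS replicate 3 or MSC-EVs replicate 1) to 676 (without MSC-EVs replicate 2). On the FPKM scale the median of all genes moved to 0.136 with a pseudocount of 1 and 0.149 with 0.1 (NS against WT).

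Values near 0 changed sign, and the cause was not tested. Between the treatments, the chromosome Y covariate leaves the treatment term to MSC-EVs replicate 3 alone against NS, since the other MSC-EVs libraries alone carry these counts. It is no check of the treatment effect, and gave 0.276 for Nrl, 0.129 for Otx2, 0.033 for Thrb and 0.018 for Rxrg, none past the threshold, and limma gave 0.085, 0.09 and 0.085 for Thrb. For MSC-EVs against WT, limma gave 0.039, 0.04 and 0.039 for Thrb, 0.12, 0.142 and 0.12 for Rxrg and 0.141, 0.142 and 0.141 for Mef2d. The median of all genes in these limma fits was 0.119, 0.132 and 0.064. On counts, Rxrg was at 0.003 with DESeq2 size factors, 0.002 with the Wald test and 0.012 with at least 10 counts in every library. With single libraries left out, the log2 fold change between the treatments ranged from -0.187 to 0.14 for Nrl, -0.184 to 0.0 for Otx2 and -0.087 to 0.078 for Thrb, and that of Rxrg against WT with MSC-EVs from -0.151 to 0.079. The ratio differences ranged from -0.014 to 0.197 for Thrb to cone genes (NS against WT), -0.078 to 0.354 for Prdm1 to rod genes (between the treatments) and -0.073 to 0.13 for Rorb to Crx (MSC-EVs against WT).

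Replicate numbers are shared by the groups, but same-numbered NS and MSC-EVs libraries correlated at 0.093, 0.18 and 0.272, and differently numbered ones at -0.191 to 0.001. Each library thus correlated best with its own number, a hint of pairing from the data. As 1 correlation was under 0.1 and the labels do not tie the numbers to litters, the fit without the block was kept. With the replicate block, Rorb was at -0.53 (edgeR adjusted p = 0.0273), the count of members changed between the treatments stayed at 1, and the count over all genes rose to 403. Rxrg and Prdm1 rested on the fewest counts, and 3 libraries per group limit every ratio test to 0.1.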
